A study of Mus musculus with 4 samples.

Results

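Progression through G1 in T8 leukemia cells was examined at the level of transcripts for 10 genes: the D-type cyclins *Ccnd1*, *Ccnd2* and *Ccnd3*, their kinases *Cdk4* and *Cdk6*, the inhibitors *Cdkn1b*, *Cdkn2a*, *Cdkn2c* and *Cdkn2d*, and *Rb1*. The genes were chosen by name from 55359 in the count table, with earlier results of these data known. All 10 were among the 14637 genes with enough counts to be tested. T8 is a cell line established from a primary B-cell progenitor leukemia of 1 *Irf4*-/- mouse, whose age is not given in the labels, so that all libraries come from the same tumor, which carries a *Jak3* mutation and depends on IL-7. The line was started on irradiated ST2 stromal cells and was later able to grow without them. The cells were transduced with a retrovirus (RV) coding for GFP alone (EV-RV, empty vector) or for GFP plus IRF4 (IRF4-RV), and bulk RNA was sequenced 24 h later from 2 libraries per group. The submitters call the libraries of a group biological replicates without stating whether they came from separate transductions, so that the spread between them may be technical. The comparison of IRF4-RV with EV-RV asks which transcripts differed in the cells collected after IRF4 was returned to the leukemia cells. The paper reports apoptosis and a gradual loss of cells with IRF4-RV but not with EV-RV, and describes the sequenced cells as still viable. Whether the loss of some cells before collection contributed to the differences below was not tested.

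D-type cyclins activate CDK4 and CDK6, and the active kinases phosphorylate the retinoblastoma protein RB, which releases E2F transcription factors and opens S phase. INK4 proteins (encoded by *Cdkn2a*, *Cdkn2b*, *Cdkn2c* and *Cdkn2d*) bind CDK4 and CDK6 and keep them from the cyclins, whereas p27 (encoded by *Cdkn1b*) and its relatives inhibit cyclin E with CDK2. In B-cell progenitors, IL-7 drives proliferation, and cyclin D3 is required for the expansion of preB cells. Cyclin D2 is known for its part in the response of mature B cells to antigen receptor signals, and IRF4 for ending the cycling of preB cells.

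Library totals lay between 31230223 and 37817752 counts. *Irf4* (chromosome 13, 30749226 to 30766976) had 8070 and 7600 counts in EV-RV cells, although the line is *Irf4*-/-, and 95578 and 90693 in IRF4-RV cells, with a log2 fold change of 3.46 (adjusted p = 1.14e-06 by edgeR). The vector labels were thus matched, while the knockout was not checked, since counts per gene do not show the deleted part. Of 8 B progenitor markers, 7 were tested and *Rag1* had at most 1 count in a library. Their summed level was 3474 and 3641 CPM (counts scaled to a common library size) in EV-RV cells and at most 2450 CPM in IRF4-RV cells, and the 2 that changed, *Vpreb1* and *Igll1*, fell. The part of this shift in the results below was not tested. The T and NK cell markers summed to at most 1.59 CPM with *Cd8a*, *Cd8b1* and *Ncr1* at 0 counts, and the myeloid markers to at most 0.906 CPM with *Adgre1* and *S100a8* at 0. The 8 stromal markers summed to 47.6 and 88.9 CPM in EV-RV cells, as against 47.0 and 221 CPM in IRF4-RV cells, so that IRF4-RV replicate 2 stood apart. *Dcn* and *Lum* had at most 2 counts in a library, and the 6 stromal markers tested had log2 fold changes of 0.75 to 1.15 that did not pass the cutoff. Without this library the log2 fold changes were 1.44 for *Ccnd2*, -0.78 for *Ccnd3*, 0.63 for *Cdkn1b*, 0.56 for *Cdkn2a*, 1.02 for *Cdkn2d* and 0.79 for *Rb1*, and all 6 kept their call.

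With IRF4-RV, *Ccnd2* and *Ccnd3* exchanged places, the inhibitors among the 10 genes and *Rb1* were higher, and *Ccnd1* and the kinases did not pass the test. The call of *Cdkn2c* was unstable. Of the 10 genes, 6 rose and 1 fell at a false discovery rate (FDR) of 0.1 in edgeR's quasi-likelihood test. The genes that rose were *Ccnd2*, *Cdkn1b*, *Cdkn2a*, *Cdkn2c*, *Cdkn2d* and *Rb1*, and the gene that fell was *Ccnd3*. Of all genes tested, 29.7% were called, 16.0% as higher and 13.7% as lower. Of the calls over all genes 53.8% were higher, and 37.8% when libraries were scaled by their size alone, a setting under which none of the 10 genes turned its direction. The median log2 fold change was 0.36 over the 10 genes and 0.01 over all genes tested. CPM of the groups did not overlap for 9 of the 10, against 61.3% of all genes tested. In bulk libraries, fewer cells of a type and less RNA per cell cannot be told apart.

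**Figure D1:**
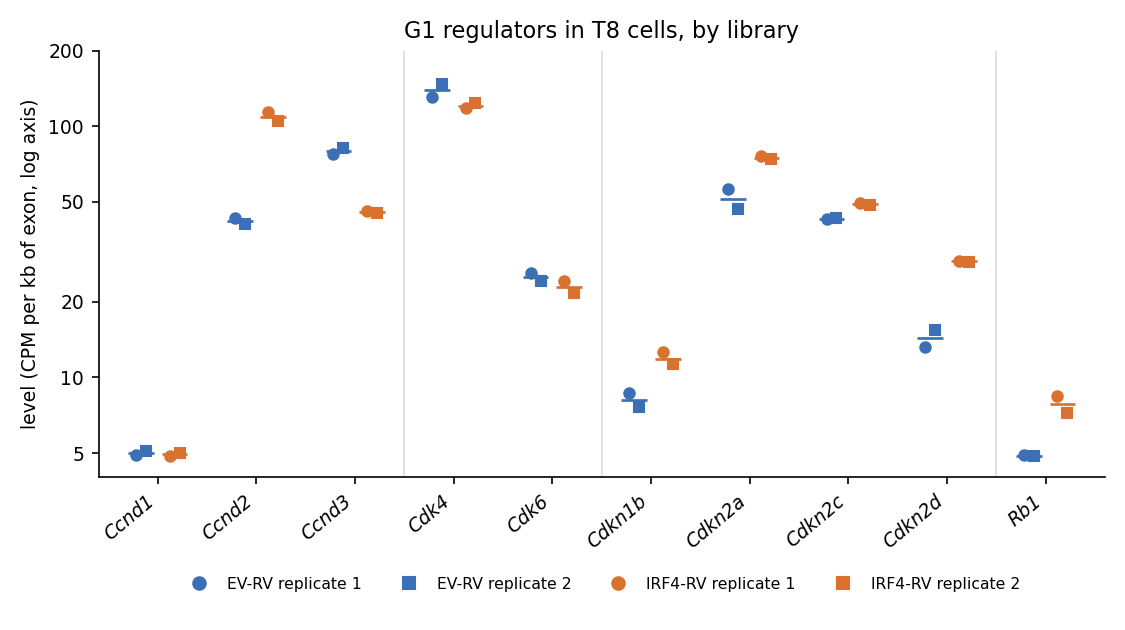
Level of each gene in each library, in CPM per kb of exon on a log axis, with EV-RV in blue and IRF4-RV in orange. Points are libraries and short lines are means of 2. *Ccnd2* lay at 43.3 and 40.9 in EV-RV cells, as against 114 and 105 in IRF4-RV cells, while *Ccnd3* went from 77.4 and 82.1 to 46.2 and 45.3.

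Cyclin D2 carried the largest change. *Ccnd2* (ENSMUSG00000000184, GRCm38 chromosome 6, 127125162 to 127152193, minus strand) was counted 13578 and 12138 times in EV-RV cells, as against 36191 and 35801 times in IRF4-RV cells. At 407 and 385 CPM the EV-RV libraries were close to each other and far below the IRF4-RV libraries at 1069 and 983 CPM. Group means were 396 ± 15.5 CPM (SD, n = 2) and 1026 ± 60.3 CPM (SD, n = 2), and the fitted fold change was 2.59. In log2 terms the change was 1.37 ± 0.079 (SE, adjusted p = 2.6e-05 by edgeR), and lay from 1.29 to 1.44 when any library was dropped. The 2 antisense genes that overlap *Ccnd2* had at most 3 counts in a library.

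Cyclin D3, the D-type cyclin of dividing preB cells, moved the other way. *Ccnd3* (ENSMUSG00000034165, chromosome 17, 47505051 to 47599691, plus strand) was counted 22669 and 22708 times in EV-RV cells, as against 13729 and 14476 times in IRF4-RV cells. Its level was 679 and 720.2 CPM in EV-RV cells, as against 405 and 398 CPM in IRF4-RV cells, and the groups did not overlap. It fell by 0.80 ± 0.0724 on the log2 scale (SE, adjusted p = 0.000241 by edgeR), to 0.574 of the EV-RV level, with a range of -0.85 to -0.76 with each library left out. *Ccnd3-ps*, a processed pseudogene on chromosome 4 that could share reads with *Ccnd3*, had 192, 143, 88 and 85 counts in the 2 EV-RV and then the 2 IRF4-RV libraries. *Bysl* overlaps 4.11% of the exon bases of *Ccnd3* on the opposite strand and fell by 0.51 (adjusted p = 0.00603 by edgeR). RefSeq has more than 1 start for *Ccnd3*. The 250 bases before the most upstream one are shown because they hold the only match to the FOXO letters TGTTTAC or TGTTTGC (in capitals) among the windows examined on either strand. The other *Ccnd3* window examined, from 47593217 to 47593466, did not hold these letters. Counts per gene do not show which start was used in these cells.

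*Ccnd3*, chr17:47504801-47505050, plus strand: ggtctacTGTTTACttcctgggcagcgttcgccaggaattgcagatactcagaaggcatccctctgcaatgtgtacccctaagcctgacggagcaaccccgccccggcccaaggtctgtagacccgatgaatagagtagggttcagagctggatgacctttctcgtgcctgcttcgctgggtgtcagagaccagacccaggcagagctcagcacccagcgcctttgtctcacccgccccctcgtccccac

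Cyclin D1 was the minor D-type cyclin in these cells. *Ccnd1* (ENSMUSG00000070348, chromosome 7, 144929931 to 144939925, minus strand) had 771 and 759 counts in EV-RV cells, as against 776 and 859 in IRF4-RV cells. The levels of 23.1 and 24.1 CPM against 22.9 and 23.6 CPM overlapped. This gave a log2 fold change of -0.02 ± 0.092 (SE, adjusted p = 0.903 by edgeR). *LTO1* shares 23.36% of the exon bases of *Ccnd1* on the opposite strand, and its level of 0.836 to 1.09 CPM per kb was below that of *Ccnd1* at 4.87 to 5.11 CPM per kb in every library.

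Per kilobase of exon the 3 cyclins can be set side by side. *Ccnd3* made up 61.7% and 64.1% of the D-type cyclin total in the EV-RV libraries, and *Ccnd2* 34.4% and 31.9%. In the IRF4-RV libraries the order was the opposite, with *Ccnd2* at 69.0% and 67.5% and *Ccnd3* at 28.1% and 29.3%. The ratio of *Ccnd2* to *Ccnd3* went from 0.559 and 0.499 to 2.46 and 2.31. These values depend on the length. With the longest transcript the mean ratio went from 0.345 to 1.56. The mean share of *Ccnd2* then went from 25.0% to 59.5% and that of *Ccnd3* from 72.5% to 38.2%, with the same change of order. *Ccnd1* held 3.91% and 3.99% in EV-RV cells, as against 2.96% and 3.24% in IRF4-RV cells. The total of the 3 was 127 ± 1.78 CPM per kb (SD, n = 2) with EV-RV and 159.7 ± 6.93 (SD, n = 2) with IRF4-RV, a ratio of 1.26 that was 1.09 when the longest transcript was used as the length. With 2 libraries against 2, an exact permutation test cannot reach the threshold, and no other test of these shares was run.

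**Figure D2:**
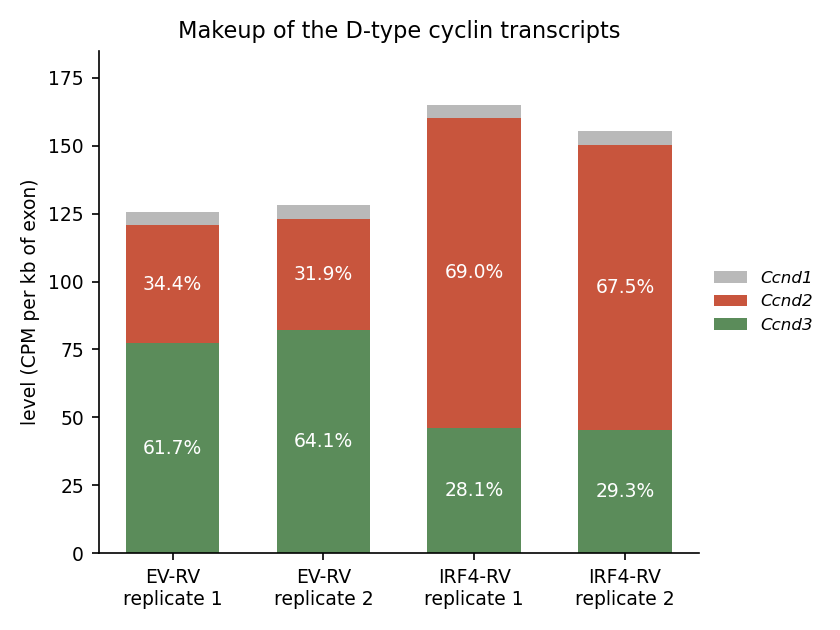
D-type cyclin transcripts in each library, in CPM per kb of exon, stacked by gene, with the share of *Ccnd2* and *Ccnd3* printed in each bar. *Ccnd3* held the larger share in the EV-RV libraries (61.7% and 64.1%) and *Ccnd2* in the IRF4-RV libraries (69.0% and 67.5%).

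The partner kinases were abundant in both groups. *Cdk4* (ENSMUSG00000006728, chromosome 10, 127063534 to 127067920, plus strand) stood at 423 and 478 CPM in EV-RV cells, as against 382 and 401 CPM in IRF4-RV cells. Both IRF4-RV libraries were below both EV-RV libraries, but the gap was smaller than the difference between the EV-RV libraries. In log2 terms the change was -0.20 ± 0.0837 (SE, adjusted p = 0.132 by edgeR), and the call depended on the setting, since scaling by library size alone gave an adjusted p of 0.022 and leaving out EV-RV replicate 1 gave 0.0329. *Tspan31* overlaps 19.73% of the exon bases of *Cdk4* on the opposite strand and changed by 0.44 (adjusted p = 0.0244 by edgeR). Whether counting used the strand is not given in the sources used here, so that reads in the shared part cannot be assigned. *Cdk6* (ENSMUSG00000040274, chromosome 5, 3341485 to 3531008, plus strand) had 363 and 339.7 CPM in EV-RV cells, as against 338 and 304 CPM in IRF4-RV cells, with a log2 fold change of -0.13 ± 0.0822 (SE, adjusted p = 0.304 by edgeR). Per kilobase, *Cdk4* was 83.4% and 85.8% of the kinase pair in EV-RV cells, as against 83.0% and 85.0% in IRF4-RV cells, and these shares overlapped.

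The region before the start of *Cdk4* is shown because it holds 4 copies of CACGTG (in capitals), the E-box letters. CACGTG reads the same on both strands and was found in 6.02% of 32851 RefSeq promoter windows of 250 bases. *Cdk6* holds 1 copy in its window.

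*Cdk4*, chr10:127063285-127063534, plus strand: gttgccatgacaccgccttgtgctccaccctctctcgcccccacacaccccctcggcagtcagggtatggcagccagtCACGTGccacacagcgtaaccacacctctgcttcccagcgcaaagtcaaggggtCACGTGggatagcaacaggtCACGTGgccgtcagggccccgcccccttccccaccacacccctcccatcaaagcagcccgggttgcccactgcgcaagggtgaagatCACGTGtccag

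All 4 inhibitors among the genes examined were higher with IRF4-RV. p27 is the Cip/Kip inhibitor that accumulates in resting lymphocytes. Its gene *Cdkn1b* (ENSMUSG00000003031, chromosome 6, 134920401 to 134925513, plus strand) had 39.4 and 34.8 CPM in EV-RV cells, as against 57.3 and 51.3 CPM in IRF4-RV cells. Both IRF4-RV libraries were above both EV-RV libraries. This gave a log2 fold change of 0.55 ± 0.102 (SE, adjusted p = 0.00716 by edgeR), from 0.45 to 0.63 with each library left out. The window before its start is shown as an example of the GC box GGGCGG (in capitals), which was in 7 of the 10 windows of these genes and in 32.7% of all windows.

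*Cdkn1b*, chr6:134920151-134920400, plus strand: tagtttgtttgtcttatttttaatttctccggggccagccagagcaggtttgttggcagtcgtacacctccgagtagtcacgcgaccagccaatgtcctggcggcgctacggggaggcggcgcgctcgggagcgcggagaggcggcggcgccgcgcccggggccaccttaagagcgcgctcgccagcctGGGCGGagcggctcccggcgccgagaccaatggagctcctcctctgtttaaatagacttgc

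Among the INK4 genes *Cdkn2d* changed most. *Cdkn2d* (ENSMUSG00000096472, chromosome 9, 21288410 to 21291407, minus strand), which encodes the INK4 protein p19, was counted 695 and 768 times in EV-RV cells, as against 1548 and 1658 times in IRF4-RV cells. Its level was 20.8 and 24.4 CPM against 45.7 and 45.5 CPM, a fold change of 2.02. In log2 terms the change was 1.01 ± 0.103 (SE, adjusted p = 0.00041 by edgeR), from 0.90 to 1.13 with each library left out.

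*Cdkn2a* (ENSMUSG00000044303, chromosome 4, 89274471 to 89294653, minus strand) encodes p16, an INK4 protein, and ARF, which stabilizes p53, from separate starts and in different reading frames. Counts per gene do not tell them apart. It was well expressed, with 66.0 and 54.7 CPM in EV-RV cells, as against 89.0 and 86.5 CPM in IRF4-RV cells. This gave a log2 fold change of 0.54 ± 0.102 (SE, adjusted p = 0.00775 by edgeR), from 0.41 to 0.67 with each library left out. The EV-RV libraries differed more from each other, by an SD of 7.96 CPM, than the IRF4-RV libraries, by 1.75 CPM.

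*Cdkn2c* (ENSMUSG00000028551, chromosome 4, 109660876 to 109667189, minus strand), which encodes p18, changed least of the 4 inhibitors. It had 115 and 116 CPM in EV-RV cells, as against 133 and 130.1 CPM in IRF4-RV cells, and the groups did not overlap. Its log2 fold change of 0.19 ± 0.0717 (SE, adjusted p = 0.0966 by edgeR) lay just inside the cutoff, and the call was lost with DESeq2 (adjusted p = 0.139), with library size only (0.327) and with any of the 4 libraries left out (0.178 to 0.49). Per kilobase, the 4 inhibitors together were at 117 ± 5.79 CPM per kb (SD, n = 2) with EV-RV and at 165 ± 3.38 (SD, n = 2) with IRF4-RV. *Cdkn2a* held the largest part, with means of 51.5 and 74.9 CPM per kb, and its counts do not tell p16 from ARF. Set against the D-type cyclin total, the inhibitor total gave a ratio of 0.964 and 0.881 in EV-RV cells, as against 1.02 and 1.05 in IRF4-RV cells, and the groups did not overlap. The level of this ratio depends on the length, with means of 0.552 and 0.717 for the longest transcript and of 0.21 and 0.22 without length.

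RB, the substrate of these kinases, is encoded by *Rb1* (ENSMUSG00000022105, chromosome 14, 73183673 to 73325822, minus strand). It was counted 987 and 919 times in EV-RV cells, as against 1711 and 1587 times in IRF4-RV cells. Its level was 29.6 and 29.1 CPM against 50.5 and 43.6 CPM, with a wider spread between the IRF4-RV libraries. This gave a log2 fold change of 0.68 ± 0.101 (SE, adjusted p = 0.00257 by edgeR), from 0.55 to 0.79 with each library left out. *Rcbtb2* and *Lpar6* overlap 8.11% and 6.78% of its exon bases on the opposite strand, with log2 fold changes of 0.17 and 0.28 that did not pass the cutoff (adjusted p = 0.271 and 0.297 by edgeR).

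**Figure D3:**
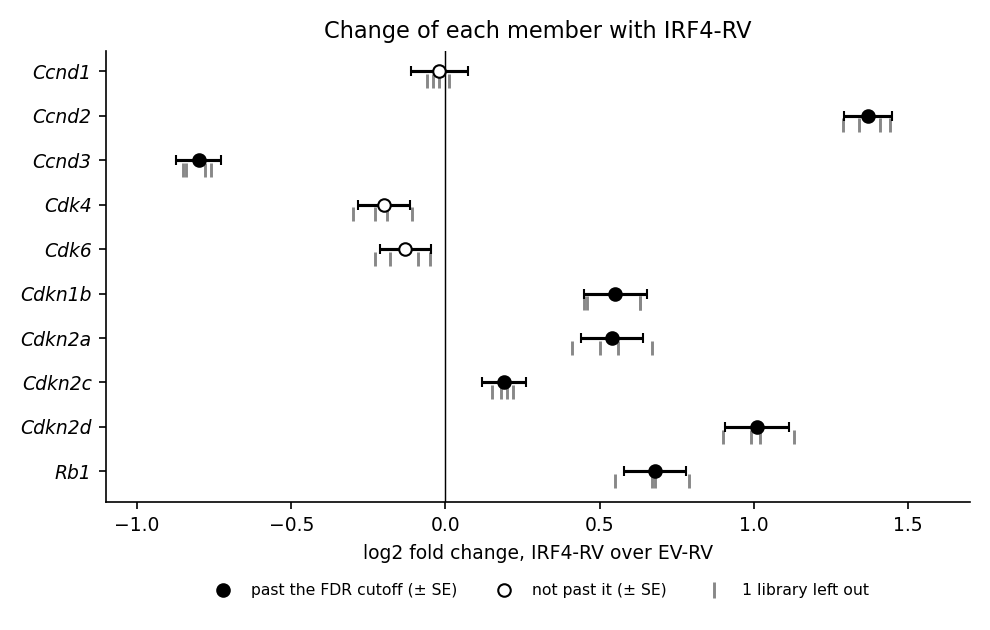
Log2 fold change of IRF4-RV over EV-RV for each gene (points, bars are standard errors), filled where the edgeR adjusted p was under 0.1, with the values after leaving out each library as gray ticks. *Ccnd2* at 1.37 and *Cdkn2d* at 1.01 lay farthest to the right and *Ccnd3* at -0.80 farthest to the left. *Ccnd1*, *Cdk4* and *Cdk6* did not pass the cutoff.

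Levels per kilobase place the genes in an order. With EV-RV, *Cdk4* was highest at 139 ± 12 CPM per kb (SD, n = 2), followed by *Ccnd3* at 79.8 ± 3.29 and *Cdkn2a* at 51.5 ± 6.79. *Cdkn2c* at 42.9 ± 0.126 and *Ccnd2* at 42.1 ± 1.65 overlapped, and below them came *Cdk6* at 25.1 ± 1.2, *Cdkn2d* at 14.4 ± 1.58 and *Cdkn1b* at 8.15 ± 0.713. *Ccnd1* at 5.01 ± 0.145 and *Rb1* at 4.88 ± 0.0511 were lowest and overlapped. With IRF4-RV, *Ccnd2* at 109 ± 6.41 came directly after *Cdk4* at 121 ± 4.15, and *Ccnd3* at 45.8 ± 0.625 came after *Cdkn2a* at 74.9 ± 1.49 and *Cdkn2c* at 49.1 ± 0.867. *Cdkn2d* at 29.0 ± 0.075 was above *Cdk6* at 22.9 ± 1.71, and *Rb1* at 7.82 ± 0.815 was above *Ccnd1* at 4.94 ± 0.102. Parts of this order rest on the union of exons as the length. With the longest transcript, a length tried after the data were seen, *Ccnd3* at 104 ± 1.42 (SD, n = 2) was above *Cdkn2a* at 98.0 ± 1.95 and *Cdkn2c* at 53.3 ± 0.942 in IRF4-RV cells. In EV-RV cells *Ccnd2* at 62.6 ± 2.46 was then above *Cdkn2c* at 46.7 ± 0.137 and overlapped *Cdkn2a* at 67.5 ± 8.89.

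RefSeq promoter windows were available for 7 of the 10 genes, 10 windows in all. Annotated exons covered all 250 bases of a *Cdkn2c* window and 198 of the *Cdkn2d* window, so that some windows lie partly or wholly inside annotated genes. None of the 10 windows held the IRF motif (GAAA and GAAA, 2 bases apart) or the ETS-IRF motif (GGAA and GAAA, 2 bases apart), which can overlap and were found on either strand in 2.98% and 2.30% of all windows. The E2F letters TTTGGCGC or TTTCGCGC and the STAT letters TTCNNNGAA (0.654% and 7.02% of all windows) were not found either. Other spellings of the E2F site were not searched, such as TTTCCCGC, which is in a *Cdkn2a* window. The FOXO letters were in 7.29% of all windows. *Ccnd1*, *Ccnd2* and *Rb1* were not examined for motifs.

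The wider pathway was followed in a list of 51 other genes, of which 50 were tested. This list, too, was chosen with earlier results of these data known. In edgeR's quasi-likelihood test 8 rose and 16 fell, against 16.0% of all genes called higher and 13.7% called lower, so that the share that rose was that of all genes. The count of 24 was 14 without IRF4-RV replicate 1 and 14 without IRF4-RV replicate 2. Among the other inhibitors, *Cdkn2b*, which encodes p15 next to *Cdkn2a* on chromosome 4, rose by 0.92 ± 0.0876 on the log2 scale (SE, adjusted p = 0.000299 by edgeR), from 738 and 727 to 1441 and 1568 counts. *Cdkn1a*, which encodes the p53 target p21, had a log2 fold change of -0.01 (adjusted p = 0.982 by edgeR), and *Cdkn1c* had at most 1 count in a library. Thus 5 of the 6 inhibitors tested were higher, 1 of them *Cdkn2c* with its unstable call, against 16.0% of all genes. Of the relatives of RB, *Rbl2* (p130, the pocket protein of resting cells) rose by 0.43 (adjusted p = 0.0168 by edgeR, and 0.101 without IRF4-RV replicate 1). *Rbl1* (p107) had a log2 fold change of 0.10 (adjusted p = 0.413 by edgeR).

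Among the listed E2F, cyclin E, cyclin A and E2F target genes, those that passed the test were lower. Of 10 E2F and DP genes 6 fell and 0 rose by edgeR (DESeq2 also called 6 lower and 0 higher, and 0 were higher at an unadjusted p under 0.05), against 13.7% of all genes called lower. *E2f6* fell by 0.47 (adjusted p = 0.0154 by edgeR) and *E2f8* by 0.45 (adjusted p = 0.0175 by edgeR), both repressors of E2F target genes. The other genes called lower were *E2f3* (-0.44), *E2f1* (-0.37), *Tfdp1* (-0.29) and *E2f4* (-0.24), so that the calls were not confined to *E2f6* and *E2f8*. Of 15 E2F target genes 7 fell and 0 rose by edgeR (6 and 0 by DESeq2, and 0 higher at an unadjusted p under 0.05), among them *Cdc6* by 0.41 (adjusted p = 0.0229 by edgeR), which loads the replicative helicase, and *Mcm5* by 0.31 (adjusted p = 0.0242 by edgeR), a subunit of it. The calls among E2F target genes were few without IRF4-RV replicate 1 or 2, with 2 genes each, and among E2F and DP genes they were 3 and 2. With a library left out the adjusted p was at most 0.0707 for *E2f6*, 0.119 for *E2f8*, 0.098 for *Cdc6* and 0.139 for *Mcm5*. Without EV-RV replicate 2, 4 E2F target genes were called, and with library size only 12. Log2 fold changes of these 15 genes ranged from -0.41 to 0.03 with a median of -0.20. Of the cyclin E, cyclin A and CDK2 genes and *Cdc25a*, whose phosphatase activates CDK2, *Ccne2* fell by 0.53 (adjusted p = 0.00692 by edgeR), and the other 4 had values from -0.26 to -0.08. The CDK-activating kinase genes *Cdk7*, *Ccnh* and *Mnat1* had log2 fold changes of 0.02, -0.13 and 0.08 and did not pass the cutoff.

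*Skp2*, the ubiquitin ligase subunit that marks p27 for degradation, fell by 0.45 ± 0.0852 (SE, adjusted p = 0.00803 by edgeR, and at most 0.0415 with 1 library left out). *Rnf123*, a ligase for p27 in G1, rose by 0.42 (adjusted p = 0.015 by edgeR, and 0.123 without IRF4-RV replicate 1). Among 8 upstream regulators, 5 rose and 1 fell, against 16.0% and 13.7% of all genes. *Myc*, which drives growth and the cell cycle, fell by 1.09 ± 0.0873 (SE, adjusted p = 0.000133 by edgeR), from 9322 and 8915 to 4804 and 4479 counts. *Foxo1*, a transcription factor of B-cell progenitors that activates *Cdkn1b*, rose by 1.10 ± 0.0898 (SE, adjusted p = 0.000144 by edgeR), from 1009 and 943 to 2282 and 2227 counts. With each library left out, *Myc* ranged from -1.21 to -0.98 and *Foxo1* from 1.0 to 1.17.

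**Figure D4:**
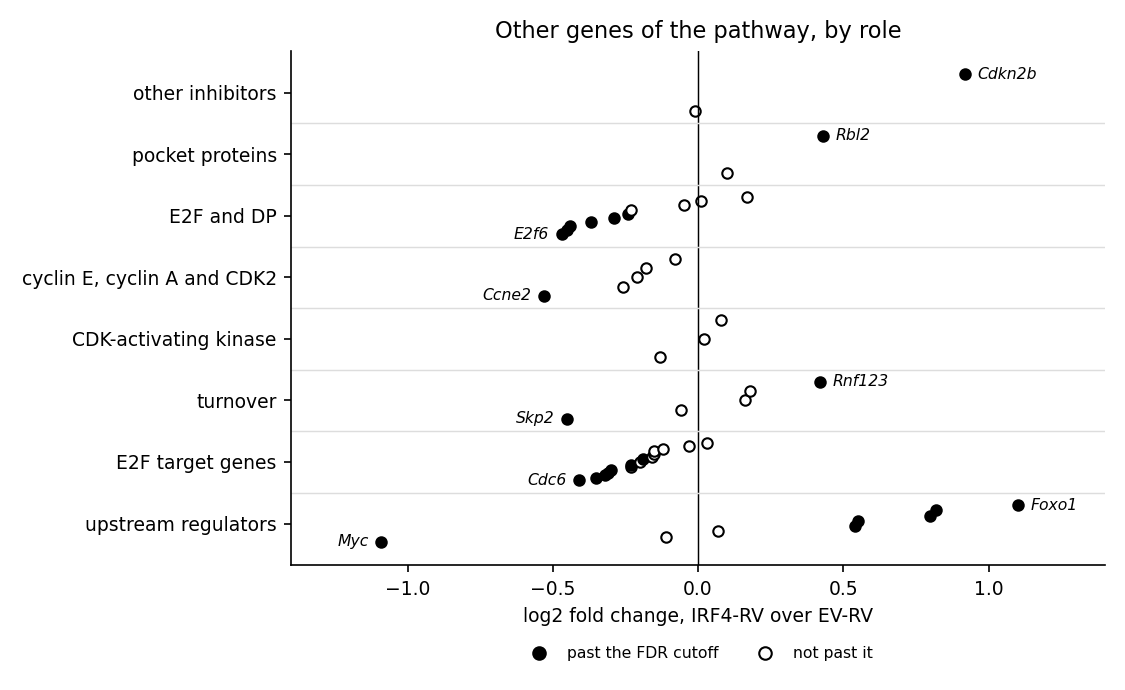
Log2 fold change of IRF4-RV over EV-RV for the 50 other pathway genes tested, in rows by role, filled where the edgeR adjusted p was under 0.1. *Foxo1* at 1.10 and *Cdkn2b* at 0.92 lay farthest to the right and *Myc* at -1.09 farthest to the left, and the filled points of the E2F rows lay left of 0.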

How the data were processed

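Bulk RNAseq libraries of T8 cells (2 per group, 24 h after transduction) were grouped by the sample titles. The protocol text names T11 cells, while titles and tissue name T8, which was used. Per the methods and the submitters' processing notes, STAR 2.4.0j was the aligner (GRCm38), and the authors deposited raw featureCounts counts per gene. Strand and multi-mapping settings are not given in the sources used here. Of 55359 identifiers, 52083 were matched to GENCODE M21 for symbols, exon lengths and coordinates.

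Counts of genes passing filterByExpr (14637) were tested in R 4.3.3 with edgeR 4.0.16 (TMM, quasi-likelihood F test, Benjamini-Hochberg over all genes, FDR 0.1, no replicate block). Standard errors are the log2 fold change over the square root of F. The procedure was tested on simulated data. CPM are counts scaled to a common TMM-adjusted library size, and CPM per kb divides by the union of exons. A level of 3 counts is 0.0824 to 0.0952 CPM, counting error only. Promoter sequences are from RefSeq (GRCm38.p6). Genes named are the 10 members, *Irf4*, and per pathway role the called genes changed by at least 1 on the log2 scale, or the 2 with the smallest adjusted p, with whole roles of up to 3 genes. All called E2F and DP genes and *E2f2* are named as well. Members and lists were chosen with earlier results of these data known. DESeq2 1.42.0, other scalings and filters, an FDR of 0.05, the replicate block and leaving out each library were the alternatives.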

Additional observations from a re-analysis of the deposited data

How the results depend on the processing

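Across the alternatives, *Ccnd2*, *Ccnd3*, *Cdkn1b*, *Cdkn2a*, *Cdkn2d* and *Rb1* kept their direction and stayed past the FDR cutoff, while *Cdkn2c*, *Cdk4* and *Cdk6* changed sides. The 2 libraries per group limit the precision, and the causes of these changes were not tested. On simulated counts a larger share of the calls was false than the FDR states, more so with the replicate block. Far fewer genes were changed in the simulation than were called in these data, so that the false share here may differ. *Cdkn2c* was lost with DESeq2's size factors in edgeR (log2 fold change 0.19, adjusted p = 0.11), library size only (0.10, adjusted p = 0.327), every gene counted at least once kept (0.20, adjusted p = 0.194), a CPM of at least 1 in at least 2 libraries (0.18, adjusted p = 0.1 after rounding) and DESeq2 (0.19, adjusted p = 0.139), and without any 1 library (0.15 to 0.22). *Cdk4* was called lower with library size only (-0.29, adjusted p = 0.022), the CPM filter (-0.22, adjusted p = 0.0827) and without EV-RV replicate 1, with -0.30 to -0.11 over the 4 libraries left out. The value of *Ccnd1* turned from -0.02 to 0.011 without EV-RV replicate 2 and ranged from -0.06 to 0.011.

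The labels give only replicate numbers, with 2 pairs, so that pairing is not established. Deviations of same-numbered libraries correlated with r = 0.284 across genes. With the replicate number as a block, 6394 genes were called in place of 4349, 9 of the 10 members in place of 7 and 34 pathway genes in place of 24. *Cdk4* (-0.20, adjusted p = 0.00175) and *Cdk6* (-0.13, adjusted p = 0.0496) were then called as lower, and the direction of the other members did not change.

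Pathway genes called ranged from 14 to 26 with each library left out and were 34 with library size only. The share of *Cdk4* in the kinase pair differed by -0.599 percentage points, and by -1.83 to 0.637 with each library left out, so that its direction is not fixed. The share of *Ccnd1* differed by -0.853 points, by -0.235 with the longest transcript as length and by -0.502 without length. The inhibitor total over the D-type cyclin total was 1.12 times the EV-RV value, 1.3 times with the longest transcript and 1.05 times without length.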

Other observations

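Other cyclins, with symbols from *Ccna* to *Ccnl*, and cyclin-dependent kinases were taken by their symbols after the values above were seen. Cyclin genes with other symbols were not included. Of 13 further cyclin genes 11 were tested, and 5 rose in edgeR's test (FDR 0.1), against 16.0% of all genes called higher. *Ccng2*, which encodes cyclin G2, a cyclin of resting and arrested cells, rose by 1.38 ± 0.0864 on the log2 scale (SE, adjusted p = 3.53e-05 by edgeR), from 1294 and 1116 counts with EV-RV to 3353 and 3434 with IRF4-RV. *Ccni* rose by 0.56 (adjusted p = 0.00121 by edgeR). The cyclins of mitosis were slightly higher, *Ccnb2* by 0.31 (adjusted p = 0.0193 by edgeR) and *Ccnb1* by 0.23 (adjusted p = 0.0587 by edgeR), while *Cdk1*, their kinase, had a log2 fold change of 0.06 (adjusted p = 0.66 by edgeR). *Ccnk*, with 0.24 (adjusted p = 0.0754 by edgeR), was the fifth cyclin called. The calls of *Ccnb1*, *Ccnb2* and *Ccnk* were each lost with a library left out, at adjusted p of up to 0.304, 0.155 and 0.492.

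Of 15 further CDK genes 13 were tested, 2 of them higher and 1 lower, no larger a share than the 29.7% called over all genes. The paralogs *Cdk8* and *Cdk19*, kinases of the Mediator complex, moved in opposite directions. *Cdk8* fell by 0.50 (adjusted p = 0.00424 by edgeR), from 2062 and 2085 to 1511 and 1662 counts, and *Cdk19* rose by 0.37 (adjusted p = 0.0224 by edgeR), from 1819 and 1622 to 2444 and 2354 counts, with an adjusted p of up to 0.202 with a library left out. *Cdk14* had 7 and 10 counts in EV-RV cells, as against 15 and 44 in IRF4-RV cells (adjusted p = 0.0952 by edgeR). The count of 44 came from IRF4-RV replicate 2, in which the stromal markers were highest. Whether stromal transcripts had a part in this change was not tested.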
